A study of Raphidocelis subcapitata with 270 samples.

Results

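The transcriptome of Raphidocelis subcapitata, a single-celled green alga of fresh water and a standard species of aquatic toxicity tests, was measured after 24 h of exposure to cis-nonachlordane at 7 labelled levels, D1 to D7, and in the solvent dimethyl sulfoxide (DMSO). The libraries were chosen by their labels: the 21 cis-nonachlordane libraries, with replicate letters A, B and C at each level, and the 3 DMSO libraries of the same control set, which make 24 of the 270 libraries of the series. Fexofenadine, an antihistamine drug whose 21 libraries share these DMSO libraries, served as a second comparison. The cultures were in exponential growth, the labels name no strain or genotype, and the groups differ in them only by agent and level. The series text describes dilution series of nominal concentrations, typically from 66.7 to 0.021 µM. No label ties a concentration to a level or tells whether D1 was the strongest or the weakest, so D1 to D7 are treated as named groups. Nor do the labels say whether the 3 libraries of a group came from separate cultures, so p-values reflect only the spread of these libraries, which may be technical.

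cis-Nonachlordane is a heavily chlorinated cyclodiene and a constituent of technical chlordane, an insecticide mixture. Cyclodienes are known to block the chloride channel gated by gamma-aminobutyric acid in insect nerves, and they are persistent, fat-soluble compounds that partition into membranes and lipids. Green algae have no nervous system, and in toxicity tests with this alga the usual readout is growth. The deposited tables identify genes by locus identifiers (Rsub_ numbers) that they do not pair with names or products, so no gene is given a function here, and the labelled organism could not be checked against marker genes.

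Libraries were made by 3′ tag sequencing, which counts the ends of polyadenylated transcripts. Total counts per library ran from 1090807 to 1639066 (median 1320865) in cis-nonachlordane, and were 1124694, 1319095 and 1674099 in the DMSO libraries in rising order. Of 13429 genes in the table, 9488 had enough counts to be tested. Levels are given below in CPM, counts scaled to a common library total, and can be compared between libraries. A gene is called where its p from edgeR's quasi-likelihood test, adjusted by Benjamini-Hochberg over all genes tested, was under 0.05, and log2 fold changes are cis-nonachlordane over DMSO with their standard error (SE). In bulk RNA, fewer cells of a kind and less of a transcript per cell cannot be told apart.

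Among the cis-nonachlordane libraries, those of replicate letter A stood apart from those of letters B and C. On the first principal component of log2 CPM over the 45 libraries of the control set, which held 15.9% of the variance, the 7 letter A libraries of cis-nonachlordane lay between -5.19 and 9.12 and the 14 libraries of letters B and C between 12.4 and 21.5. Fexofenadine D1 lay between -3.66 and 5.42, fexofenadine D2 to D7 between -17.3 and -6.60, and DMSO between -14.6 and -6.61. Every cis-nonachlordane library thus had a higher value on this component than every DMSO library, and the letter A libraries were nearest to DMSO. On the second component (5.76% of the variance) the 3 libraries of cis-nonachlordane D1 lay between 6.95 and 10.05, above those of D2 to D7, which lay between -9.68 and 1.25. DMSO replicate A lay apart on that component, at 21.9, against 3.71 in B and -0.991 in C. In fexofenadine each letter A library (4.65 to 24.4) lay above those of letters B and C (-8.44 to 6.30) of the same level. The cis-nonachlordane libraries of letter A did not, at -9.68 to 6.95 against -7.39 to 10.05 in letters B and C. Because of letter A, counts of called genes are also given for letters B and C of the treated libraries alone. Letter A was set aside after it was seen to lie nearest to DMSO, and DMSO replicate A was kept. Higher counts against DMSO were therefore to be expected, and these counts are no separate test.

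**Figure D1:**
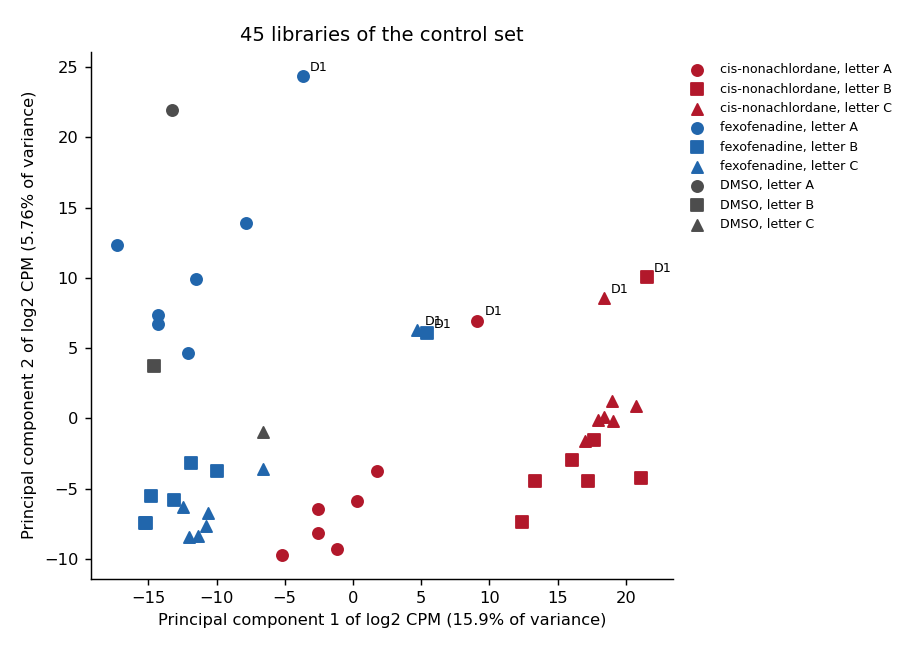
Each point is 1 of 45 libraries on the first 2 principal components of log2 CPM, coloured by agent and shaped by replicate letter, with D1 libraries marked. The cis-nonachlordane libraries of letters B and C sit at the right (12.4 to 21.5 on the first component), those of letter A in the middle (-5.19 to 9.12), and the DMSO libraries at the left (-14.6 to -6.61).

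The first comparison asked what the 7 levels shared against DMSO. Over the mean of the levels 347 genes were higher (3.66%) and 467 lower (4.92%) in cis-nonachlordane, so that 814 of 9488 genes tested were called (8.58%). Most differences were small: the median absolute log2 fold change of the called genes was 0.51, with 25 genes over 2-fold higher and 53 over 2-fold lower, and the largest was 2.23. DESeq2 called 747 genes in the same comparison. Leaving out DMSO replicate A gave 216 genes and leaving out DMSO replicate B gave 366, while leaving out any other library kept the count within 1.5 times of 814. With letters B and C of the treated libraries alone, 1526 genes were called, a rise to be expected once the treated libraries nearest to DMSO were set aside.

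The called genes were spread over all abundances, and a larger share was called among abundant transcripts. With the tested genes split into 4 equal groups by mean count, from the lowest to the highest, the share called was 2.99%, 5.35%, 8.77% and 17.2%, and the median absolute log2 fold change of the called genes was 1.09, 0.75, 0.56 and 0.40. The 100 most abundant transcripts in DMSO held 21.5% of the DMSO counts. Of these 100 genes 21 were called, 2 higher and 19 lower in cis-nonachlordane, with log2 fold changes between -0.58 and 0.36. Choosing genes by their level in the DMSO libraries of the contrast favours genes that are lower in cis-nonachlordane. The lean to lower genes may thus be partly built in and is no separate test. In the highest of the 4 groups by mean count, 190 called genes were higher and 218 lower. Summed over all genes called higher, the share of a library's counts was 6.27% to 7.43% in the cis-nonachlordane libraries, against 4.47% to 5.66% in DMSO. The genes called lower held 9.17% to 10.3% in the cis-nonachlordane libraries, against 11.5% to 13.2% in DMSO. These sums describe genes chosen by the same contrast and are no separate test.

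Complete separation was seen in fewer genes. All 21 cis-nonachlordane libraries lay above all 3 DMSO libraries for 63 of the 347 genes called higher, and 70 of all genes tested did so (0.738%). All 21 lay below all 3 for 135 of the 467 genes called lower, against 145 of all genes tested (1.53%). Within each replicate letter the mean of the levels differed from the DMSO library of that letter in the called direction in all 3 letters for 337 of the 347 higher genes and 439 of the 467 lower genes. Among all genes tested the 3 letters shared a direction for 3758 (39.6%). The median log2 difference of the higher genes was 0.55 in letter A, 0.56 in letter B and 0.41 in letter C, and that of the lower genes was -0.47, -0.59 and -0.44, on the log2(CPM + 1) scale. These counts and medians describe genes chosen by a contrast of the same libraries and are no separate test.

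**Figure D2:**
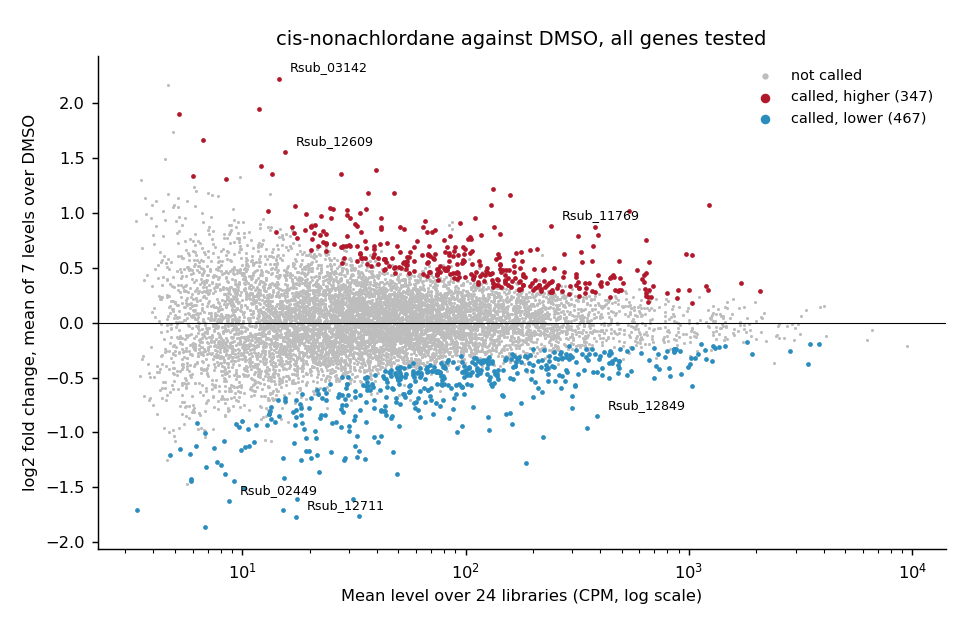
Each point is 1 of 9488 genes tested, with its mean level over the 24 libraries on a log axis and the log2 fold change of the mean of 7 levels of cis-nonachlordane over DMSO. Called genes lie on both sides of 0, 347 higher and 467 lower, and few pass a log2 fold change of 1 in either direction.

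Genes are named below by a rule: the 2 largest rises and falls among called genes that averaged 10 counts or more in the libraries compared and whose groups did not overlap, where for the mean of the levels 18 of 21 libraries outside the DMSO range sufficed. Larger called changes in genes outside this rule, such as one of 3.27 in absolute log2 fold change at D1, are not described. For the shared shift the largest rises under the rule were in Rsub_03142 and Rsub_12609. Rsub_03142 had 1.39, 17.7 and 32.9 CPM as the lowest, median and highest of the 21 cis-nonachlordane libraries, against 4.21, 1.77 and 3.79 CPM in DMSO replicates A, B and C. Its log2 fold change was 2.23 ± 0.619 (SE; edgeR adjusted p = 0.0206), and 20 of 21 cis-nonachlordane libraries were above every DMSO library, the exception being D5 replicate A at 1.39 CPM. The letter A libraries held 1.39 to 11.8 CPM and those of letters B and C 11.9 to 32.9 CPM. The call ended without any 1 of the DMSO libraries (log2 fold change 2.46 without A, 1.98 without B and 2.30 without C).

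Rsub_12609 had 6.62, 15.3 and 31.9 CPM as the lowest, median and highest of the cis-nonachlordane libraries, against 4.21, 9.75 and 3.79 CPM in DMSO. Its log2 fold change was 1.55 ± 0.378 (SE; edgeR adjusted p = 0.00779), and 19 of 21 libraries were above all 3 DMSO libraries. D3 replicate A, at 8.28 CPM, and D4 replicate C, at 6.62 CPM, lay within the DMSO range. The call ended without DMSO replicate A (1.33) or C (1.33).

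The largest falls under the rule were in Rsub_12711 and Rsub_02449, and in both genes all 21 cis-nonachlordane libraries lay below all 3 DMSO libraries. Rsub_12711 had 2.94, 11.9 and 29.4 CPM as the lowest, median and highest in cis-nonachlordane, against 37.3, 60.3 and 40.1 CPM in DMSO, a log2 fold change of -1.77 ± 0.336 (SE; edgeR adjusted p = 0.00103). Its letter A libraries held 17.6 to 29.4 CPM and those of letters B and C 2.94 to 16.4 CPM, so these ranges did not overlap. Rsub_02449 had 2.94, 5.57 and 13.7 CPM in cis-nonachlordane, against 24.1, 18.6 and 20.4 CPM in DMSO, a log2 fold change of -1.62 ± 0.284 (SE; edgeR adjusted p = 0.000477). In this gene letter A (4.95 to 10.4 CPM) lay inside the range of letters B and C (2.94 to 13.7 CPM). Both calls held in every alternative run that gave an adjusted p, 30 runs for Rsub_12711 and 29 for Rsub_02449, including each left-out library.

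DMSO libraries of the other 5 control sets, 15 in all, show how far these genes vary in solvent alone. Rsub_03142 ranged there between 1.03 and 80.6 CPM (median 9.29), Rsub_12609 between 3.36 and 25.4 CPM (median 11.0), Rsub_12711 between 9.01 and 53.8 CPM (median 26.5) and Rsub_02449 between 1.03 and 52.0 CPM (median 10.4). For Rsub_03142 and Rsub_02449 every cis-nonachlordane library lay inside that wider solvent range. The comparison with DMSO therefore rests on the 3 libraries of the control set.

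The next comparison set each level against DMSO, in a fit with no term for the letter. Counts with the letter as a block were higher at each level and are given at the end. At D1 244 genes were called, which is 2.57% of 9488 tested, with 100 higher (1.05%) and 144 lower (1.52%). At D2 282 were called (2.97%), 141 higher (1.49%) and 141 lower (1.49%). At D3 242 were called (2.55%), 116 higher (1.22%) and 126 lower (1.33%). D4 had the fewest, with 119 called (1.25%), 56 higher (0.59%) and 63 lower (0.664%). At D5 214 were called (2.26%), 102 higher (1.08%) and 112 lower (1.18%). At D6 256 were called (2.7%), 125 higher (1.32%) and 131 lower (1.38%). At D7 272 were called (2.87%), 134 higher (1.41%) and 138 lower (1.45%). The numbers called over 2-fold ran from 14 to 23 higher and from 12 to 43 lower. These 7 counts share the 3 DMSO libraries, and a test over DMSO and all levels at once called 85 genes (0.896%).

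**Figure D3:**
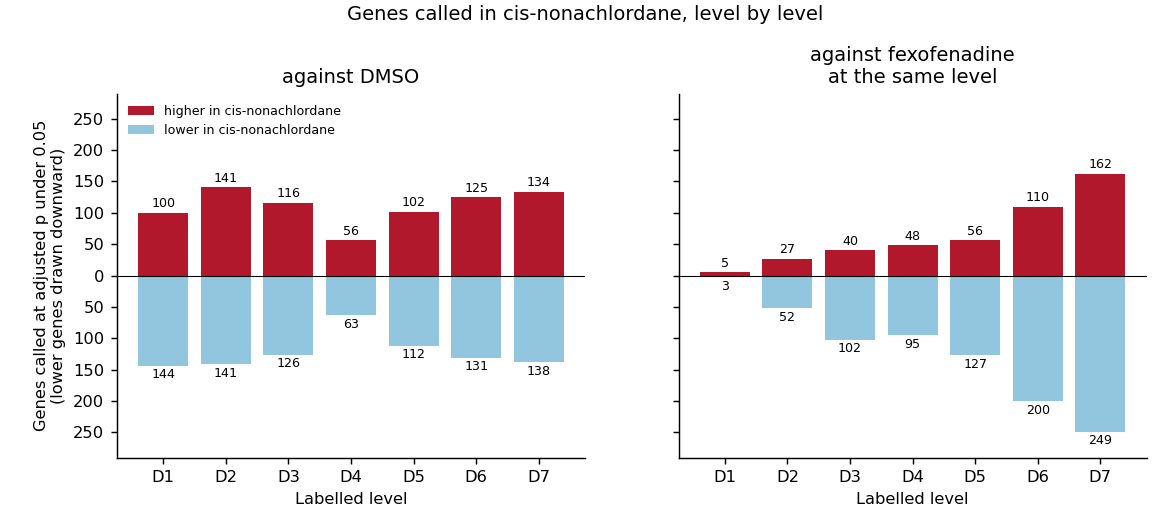
Bars give the number of genes called at each level, higher in cis-nonachlordane upward and lower downward, against DMSO at the left and against fexofenadine of the same level at the right. Against DMSO the totals run from 119 at D4 to 282 at D2, and against fexofenadine from 8 at D1 to 411 at D7.

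The counts against DMSO moved with single libraries. Without D1 replicate B or C, or DMSO replicate A or B, the D1 count was 52, 80, 137 or 78. Without D2 replicate B or C, or DMSO replicate A or B, the D2 count was 40, 54, 18 or 91. Without D3 replicate B, or DMSO replicate A, B or C, the D3 count was 30, 14, 87 or 387. Without D4 replicate B or C, or DMSO replicate A, B or C, the D4 count was 8, 6, 7, 24 or 287. Without D5 replicate B or C, or DMSO replicate A, B or C, the D5 count was 14, 8, 8, 52 or 389. Without D6 replicate B or C, or DMSO replicate A, B or C, the D6 count was 31, 49, 28, 73 or 423. Without D7 replicate B or C, or DMSO replicate A, B or C, the D7 count was 47, 82, 40, 133 or 427. The letter A library of a level could be left out at all 7 levels with a count within 1.5 times of the full one. With letters B and C of the treated libraries alone the counts from D1 to D7 were 535, 598, 501, 450, 540, 554 and 659. Such a rise was to be expected, since the treated libraries nearest to DMSO were set aside. The 85 genes called over all levels became 4 when DMSO replicate A was left out and 11 when B was, between 48 and 54 without D1, D3, D6 or D7 replicate B or D5 or D6 replicate C, and 183 without D3 replicate C.

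At D1 the largest rises under the rule for naming were in Rsub_01281 and Rsub_12609. Rsub_01281 had 17.6, 20.3 and 36.8 CPM in D1 replicates A, B and C, against 7.82, 3.54 and 4.54 CPM in DMSO (log2 fold change 2.14 ± 0.414 SE, edgeR adjusted p = 0.00357). Its call held in the 13 alternative runs that gave it an adjusted p. The 3 D1 libraries were all above the DMSO libraries, and D1 replicate C was the highest of all 21 cis-nonachlordane libraries. Rsub_12609 had 21.4, 31.9 and 15.4 CPM at D1, against 4.21, 9.75 and 3.79 CPM in DMSO (2.01 ± 0.446 SE, edgeR adjusted p = 0.0116), a call that ended without D1 replicate B (1.69) or DMSO replicate A (1.79). Fexofenadine shares these DMSO libraries. Medians over all libraries of cis-nonachlordane, fexofenadine and DMSO were 12.5, 14.1 and 4.54 CPM in Rsub_01281. In Rsub_12609 they were 15.3, 8.27 and 4.21 CPM.

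The largest falls at D1 under the rule for naming, in Rsub_04880 and Rsub_11707, were in genes whose DMSO libraries were far apart. Rsub_04880 had 2.29, 1.45 and 1.71 CPM at D1, against 3.01, 40.8 and 9.84 CPM in DMSO (log2 fold change -3.15 ± 0.783 SE, edgeR adjusted p = 0.0239). The groups did not overlap, but the D1 libraries held only 2 or 3 counts and DMSO replicate A held 5. Its call ended without D1 replicate B (-3.02), D1 replicate C (-3.12) or DMSO replicate B (-1.72). Rsub_11707 had 2.29, 4.35 and 1.71 CPM at D1, against 13.2, 30.1 and 16.7 CPM in DMSO (-2.74 ± 0.765 SE, edgeR adjusted p = 0.0434), and its call ended without any D1 library (-2.62 without A, -3.23 without B and -2.52 without C) and without DMSO replicate A (-2.99) or B (-2.35). At the other 6 levels its letter A libraries held 10.8 to 20.9 CPM, near DMSO, and those of letters B and C 2.04 to 8.84 CPM.

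At D2 the largest rises under the rule were in Rsub_08679, with 9.65, 17.7 and 26.6 CPM in D2 replicates A, B and C, against 0.601, 7.09 and 3.03 CPM in DMSO, and in Rsub_05334. The log2 fold change of Rsub_08679 was 2.45 ± 0.652 (SE; edgeR adjusted p = 0.0341), and DMSO replicate A rested on 1 count. Its call ended without D2 replicate B (2.45) or C (2.06) or DMSO replicate A (1.84) or C (2.40). Rsub_05334 had 13.4, 17.03 and 15.7 CPM at D2, against 4.21, 4.43 and 2.27 CPM in DMSO (2.06 ± 0.444 SE, edgeR adjusted p = 0.0108). All 3 D2 libraries were above the D5, D6 and D7 libraries, which held 3.21 to 8.09 CPM, and D4 replicate C reached 15.5 CPM. The call of Rsub_05334 ended without D2 replicate B (1.97) or DMSO replicate A (2.19). Medians over all libraries of cis-nonachlordane, fexofenadine and DMSO were 11.8, 5.73 and 3.03 CPM in Rsub_08679. In Rsub_05334 they were 6.52, 5.51 and 4.21 CPM.

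The named falls at D2 were in Rsub_03977 and Rsub_10428. Rsub_03977 had 4.45, 0.710 and 3.91 CPM at D2, against 12.6, 22.2 and 10.6 CPM in DMSO (log2 fold change -2.27 ± 0.478 SE, edgeR adjusted p = 0.0101). It was also a named fall at D4, with 4.95, 3.59 and 4.42 CPM (-1.75 ± 0.440 SE, edgeR adjusted p = 0.0434). At D3 and D7, where it was not called, it held 5.89 to 13.2 CPM and overlapped DMSO. Its D2 call ended without D2 replicate B (-1.81) or DMSO replicate B (-1.94), and its D4 call without any D4 library (-1.87 without A, -1.65 without B and -1.77 without C) or DMSO replicate A (-1.88) or B (-1.41). Rsub_10428 had 9.65, 2.84 and 5.48 CPM at D2, against 20.4, 23.9 and 24.99 CPM in DMSO (-1.93 ± 0.461 SE, edgeR adjusted p = 0.0188). All 21 cis-nonachlordane libraries were below these DMSO libraries, the highest at 15.1 CPM, while DMSO of the other control sets ranged between 3.28 and 28.0 CPM in this gene. Its D2 call ended without D2 replicate B (-1.59) or C (-1.88) or DMSO replicate A (-2.02) or B (-1.91).

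At D3 the named rises were in Rsub_11013 and Rsub_02655. Rsub_02655 had 142, 173 and 226 CPM in D3 replicates A, B and C, against 42.7, 47.0 and 93.9 CPM in DMSO (log2 fold change 1.57 ± 0.272 SE, edgeR adjusted p = 0.00163). It was called at every level except D1, where its 3 libraries held 83.2, 71.8 and 137 CPM, and its D3 call ended without DMSO replicate A (1.34). Rsub_11013 had 9.04, 17.9 and 17.5 CPM at D3 and 16.7, 17.3 and 10.3 CPM at D4, against 6.62, 4.43 and 3.03 CPM in DMSO. All 21 cis-nonachlordane libraries were above these DMSO libraries in this gene, while DMSO of the other control sets ranged between 3.55 and 16.7 CPM. Its log2 fold change was 1.62 ± 0.416 at D3 (SE; edgeR adjusted p = 0.0305) and 1.61 ± 0.415 at D4 (adjusted p = 0.045). The D3 call ended without D3 replicate B (1.44) or C (1.49) or any DMSO library (1.99 without A, 1.57 without B and 1.38 without C), and the D4 call without any library of either group (1.37 to 1.98). Medians over all libraries of cis-nonachlordane, fexofenadine and DMSO were 149, 111 and 47.0 CPM in Rsub_02655. In Rsub_11013 they were 13.3, 9.80 and 4.43 CPM.

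The falls at D3 included Rsub_05735, with 15.8, 10.5 and 7.96 CPM in D3, against 39.1, 32.8 and 37.9 CPM in DMSO. Its log2 fold change was -1.67 ± 0.315 (SE; edgeR adjusted p = 0.00347), and D3 replicate C was the lowest of all cis-nonachlordane libraries. The call held in the 13 alternative runs that gave the gene an adjusted p. At D1 the same gene held 24.4 to 29.0 CPM, still below every DMSO library, and was not called. In the 15 DMSO libraries of the other control sets it ranged between 11.4 and 32.0 CPM, all below the 3 DMSO libraries used here. The other named fall at D3, and also at D4 and D5, was Rsub_02449. It had 8.28, 3.70 and 5.57 CPM at D3, 4.95, 3.59 and 7.36 CPM at D4 and 10.4, 5.43 and 4.08 CPM at D5, against 24.1, 18.6 and 20.4 CPM in DMSO. The log2 fold changes were -1.85, -1.98 and -1.64 (edgeR adjusted p = 0.0191, 0.0221 and 0.0382). All 3 calls ended without DMSO replicate A (-1.75, -1.88 and -1.53) and without the B library of the level (-1.59, -1.79 and -1.50), the D4 and D5 calls without the C library of the level (-2.28 and -1.41), and the D5 call without DMSO replicate B (-1.72).

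The rise named at D4 and D6 was that of Rsub_02681. It had 39.6, 46.0 and 51.5 CPM in D4 replicates A, B and C and 33.7, 51.6 and 59.5 CPM at D6, against 10.2, 16.8 and 22.7 CPM in DMSO. The log2 fold change was 1.49 ± 0.302 at D4 and 1.58 ± 0.301 at D6 (SE; edgeR adjusted p = 0.015 and 0.00459). It was called at every level except D1, where D1 replicate A held 20.6 CPM and lay within the DMSO range. The D4 call ended without D4 replicate B (1.47) or C (1.39) or DMSO replicate A (1.18), and the D6 call without DMSO replicate A (1.27). Medians over all libraries of cis-nonachlordane, fexofenadine and DMSO were 45.6, 29.2 and 16.8 CPM in this gene.

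At D5 the named rises were in Rsub_06736 and Rsub_04493. Rsub_04493 had 53.5, 70.6 and 66.0 CPM in D5 replicates A, B and C, against 10.8, 25.7 and 31.8 CPM in DMSO (log2 fold change 1.52 ± 0.284 SE, edgeR adjusted p = 0.00837), a call that ended without D5 replicate B (1.43) or DMSO replicate A (1.13). It was lowest at D1, with 25.2, 35.5 and 35.9 CPM, where it was not called. Rsub_06736 had 14.6, 9.51 and 17.9 CPM at D5, against 6.01, 1.77 and 2.27 CPM in DMSO (1.93 ± 0.496 SE, edgeR adjusted p = 0.0374), and its call ended without any 1 of these 6 libraries (1.67 to 2.71). Medians over all libraries of cis-nonachlordane, fexofenadine and DMSO were 49.3, 47.1 and 25.7 CPM in Rsub_04493. In Rsub_06736 they were 9.04, 5.85 and 2.27 CPM. Among the falls, Rsub_07464 had 3.48, 6.11 and 3.26 CPM at D5, against 14.4, 21.3 and 13.6 CPM in DMSO (-1.88 ± 0.441 SE, edgeR adjusted p = 0.0232). Its D5 libraries held 4 to 9 counts, and its call ended without any D5 library (-1.74 without A, -2.24 without B and -1.74 without C) or DMSO replicate A (-1.98) or B (-1.68).

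At D6 Rsub_03142 was a named rise, with 7.21, 26.1 and 32.9 CPM in D6 replicates A, B and C, against 4.21, 1.77 and 3.79 CPM in DMSO (log2 fold change 2.695 ± 0.708 SE, edgeR adjusted p = 0.0356). D6 replicate A was the lowest of the 3 and still above DMSO, and the call ended without D6 replicate B (2.54) or C (2.33) or any DMSO library (2.93 without A, 2.45 without B and 2.77 without C). Medians over all libraries of cis-nonachlordane, fexofenadine and DMSO were 17.7, 6.61 and 3.79 CPM in Rsub_03142. The falls were in Rsub_12711, with 20.03, 7.71 and 8.03 CPM at D6, against 37.3, 60.3 and 40.1 CPM in DMSO, and in Rsub_12910, with 5.61, 5.93 and 6.43 CPM, against 19.2, 24.8 and 13.6 CPM. The log2 fold change was -1.95 ± 0.515 in Rsub_12711 and -1.65 ± 0.439 in Rsub_12910 (SE; edgeR adjusted p = 0.0356 and 0.0357). Without D6 replicate B or C or DMSO replicate A or B the call of Rsub_12711 ended (-1.69, -1.77, -2.09 and -1.72), and that of Rsub_12910 ended without any D6 library (-1.62, -1.65 and -1.71 for A, B and C) or DMSO replicate A (-1.66) or B (-1.46).

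At D7 the rises were in Rsub_01570 and Rsub_12609. Rsub_01570 had 19.4, 16.9 and 14.3 CPM in D7 replicates A, B and C, against 3.61, 0.886 and 9.84 CPM in DMSO (log2 fold change 1.79 ± 0.472 SE, edgeR adjusted p = 0.031). The other 18 cis-nonachlordane libraries of this gene held 3.10 to 14.3 CPM, DMSO replicate B rested on 1 count, and DMSO of the other control sets ranged between 2.00 and 53.3 CPM. The call of Rsub_01570 ended without any D7 library (1.68 without A, 1.79 without B and 1.88 without C) or DMSO replicate A (1.57) or B (1.37). Medians over all libraries of cis-nonachlordane, fexofenadine and DMSO were 8.61, 9.94 and 3.61 CPM in Rsub_01570. Rsub_12609 had 13.2, 28.7 and 11.7 CPM at D7, against 4.21, 9.75 and 3.79 CPM in DMSO (1.67 ± 0.461 SE, edgeR adjusted p = 0.0399), and its call ended without D7 replicate B (1.13) or C (1.87) or DMSO replicate A (1.45) or C (1.45).

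The falls at D7 were in Rsub_12711 and Rsub_01112. Rsub_12711 had 19.4, 4.41 and 13.4 CPM at D7, against 37.3, 60.3 and 40.1 CPM in DMSO (log2 fold change -1.87 ± 0.518 SE, edgeR adjusted p = 0.0414), and its call ended without D7 replicate B (-1.45) or C (-1.94) or DMSO replicate A (-2.02) or B (-1.65). Rsub_01112 had 33.3, 8.09 and 20.6 CPM at D7, against 87.8, 88.6 and 49.97 CPM in DMSO (-1.86 ± 0.5004 SE, edgeR adjusted p = 0.0358). The letter A libraries of Rsub_01112 held 23.7 to 54.9 CPM over the levels and those of letters B and C 8.09 to 26.7 CPM. Its call ended without D7 replicate B (-1.47) or C (-1.88) or DMSO replicate A (-1.74) or B (-1.75). Fexofenadine and DMSO medians of the named falls were 5.21 and 9.84 CPM in Rsub_04880 and 33.1 and 16.7 in Rsub_11707. They were 8.39 and 12.6 CPM in Rsub_03977, 22.3 and 23.9 in Rsub_10428, and 22.7 and 20.4 in Rsub_02449. In Rsub_05735 they were 25.5 and 37.9 CPM, and in Rsub_07464 11.7 and 14.4. The medians were 44.3 and 40.1 CPM in Rsub_12711, 18.8 and 19.2 in Rsub_12910, and 82.4 and 87.8 in Rsub_01112.

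**Figure D4:**
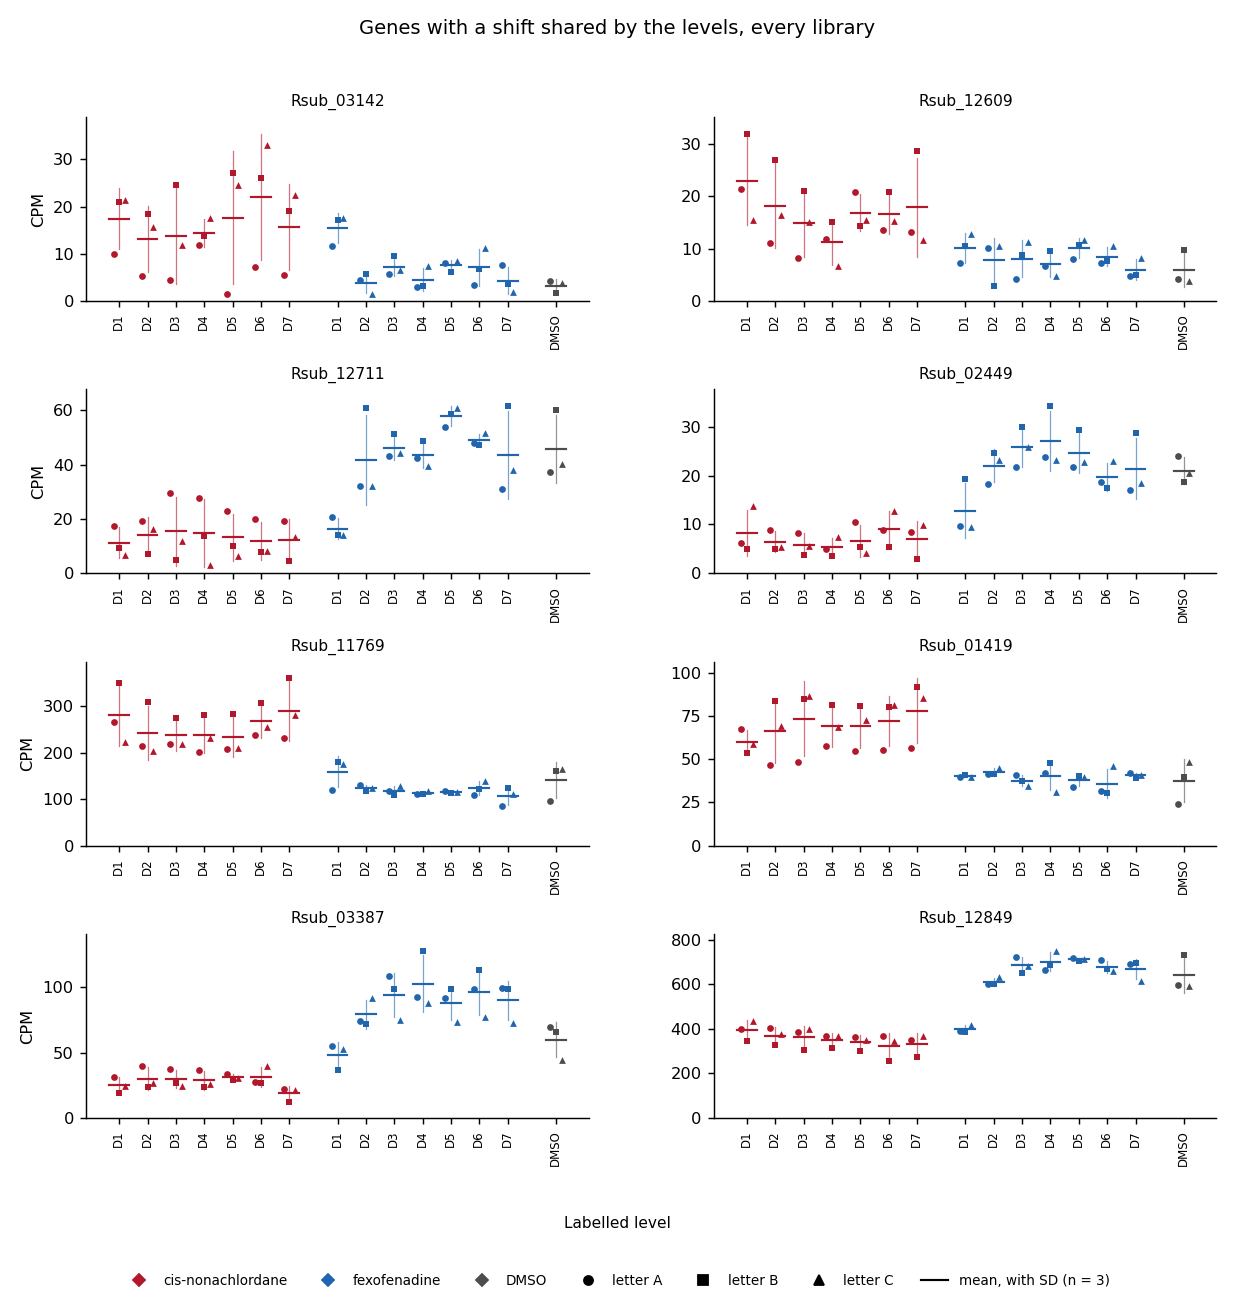
Each panel gives 1 gene, with a point per library in CPM, the mean as a bar and the SD as a line (n = 3), for cis-nonachlordane D1 to D7, fexofenadine D1 to D7 and DMSO. In Rsub_12711 and Rsub_02449 all cis-nonachlordane libraries lie below DMSO, and in Rsub_12849 fexofenadine D1 (387 to 418 CPM) lies at the height of cis-nonachlordane D1 (347 to 436 CPM) while fexofenadine D2 to D7 lie at or above 600 CPM.

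Differences among the 7 levels were then tested without DMSO in the contrast. With no term for the replicate letter, edgeR called 0 genes among D1 to D7 (0%), while 469 had an unadjusted p under 0.05 (4.94% of those tested), and the smallest adjusted p was 0.163. With the letter as a block in the fit edgeR called 15, and DESeq2 without it called 21. Of the genes called higher in the shared shift, 26 of 347 (7.49%) had an unadjusted p under 0.05 among the levels, and of those called lower 19 of 467 (4.07%). A slope over the level number was called in 0 genes (0%) by edgeR and in 0 by DESeq2, while 596 had an unadjusted p under 0.05 in edgeR.

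With all libraries in the fit and no term for the letter, the level that differed from the other 6 in most genes was D1. There 11 genes were called (0.116%), 4 higher (0.0422%) and 7 lower (0.0738%), and DESeq2 called 24. With the letter held in the fit more genes were called at D1, as given below with the replicate letters. At D7 1 gene was called (0.0105%), also by DESeq2. At D2, D3, D4, D5 and D6 edgeR called 0 genes (0%) and DESeq2 called 1 at D3 and 0 at each of the others, while 439, 860, 265, 320 and 253 genes had an unadjusted p under 0.05 in edgeR. The 11 genes at D1 became 0 without D1 replicate B or C, 1 without D2, D4, D5 or D6 replicate B or D2, D4, D5 or D7 replicate C, 3 without D6 replicate A, 7 without D6 replicate C, 6 without DMSO replicate B and 21 without DMSO replicate A. At D3 103 genes were called without D3 replicate C, and 1 without D1 replicate A, D6 replicate B or any 1 DMSO library. D3 replicate C was the treated library that agreed least with the others of its level. Among D1 to D7 2 genes were called without DMSO replicate A.

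Rsub_08453 was the abundant transcript that set D1 apart. It had 663, 396 and 612 CPM in D1 replicates A, B and C, against 845 to 1475 CPM in the 18 libraries of D2 to D7, so the ranges did not overlap. Its log2 fold change at D1 over the other 6 levels was -0.97 ± 0.155 (SE; edgeR adjusted p = 0.00402), and the call ended without D1 replicate B (-0.77) or C (-1.04). In the test among all levels its edgeR adjusted p was 0.163, and it was not called. In that test it was called once the letter entered as a block (edgeR adjusted p = 9.34e-06), with letters B and C alone (0.000905), with no filter on low counts (9.01e-09), without DMSO replicate A (0.00336) and with DESeq2 (0.000185). Over all libraries left out in turn its edgeR adjusted p lay between 0.00336 and 0.9999. The DMSO libraries held 384, 802 and 744 CPM and overlapped D1. Against DMSO the gene was called higher at D2, D3, D6 and D7 and not at D1, where the log2 fold change was -0.20. In the fexofenadine libraries the gene held 318 to 1474 CPM. Neither its gap between D1 and the other levels nor that of the D1 genes below was called as different between the agents.

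Rsub_13151 was also lower at D1, with 13.0, 5.07 and 8.55 CPM in replicates A, B and C, against 12.5 to 33.1 CPM at D2 to D7 and 15.6, 19.5 and 15.1 CPM in DMSO. Its log2 fold change over the other 6 levels was -1.28 ± 0.278 (SE; edgeR adjusted p = 0.0491), and D1 replicate A overlapped D2 replicate C. Rsub_05784 was higher at D1, with 341, 354 and 369 CPM, against 231 to 342 CPM at D2 to D7 and 298, 272 and 292 CPM in DMSO (0.40 ± 0.0831 SE, edgeR adjusted p = 0.0437). Rsub_09683 was higher too, with 187, 174 and 144 CPM, against 85.1 to 133 CPM at D2 to D7 and 165, 155 and 120 CPM in DMSO (0.52 ± 0.1098 SE, edgeR adjusted p = 0.0437). For Rsub_13151, Rsub_05784 and Rsub_09683 the call ended without 18, 12 and 13 of the 24 libraries in turn, while the log2 fold changes in those fits stayed between -1.30 and -0.98, 0.38 and 0.44, and 0.45 and 0.63.

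Rsub_09497 was the gene called at D7 against the other levels. It had 163, 181 and 154 CPM in D7 replicates A, B and C, against 59.5 to 119 CPM at D1 to D6, with no overlap. The log2 fold change was 0.89 ± 0.151 (SE; edgeR adjusted p = 0.0114), and the call ended without any D7 library (0.90 without A, 0.83 without B and 0.94 without C). DMSO replicates A, B and C held 60.7, 138 and 141 CPM, and the D7 libraries were all above them, although the log2 fold change at D7 over DMSO, 0.59, was not called. With letters B and C of the treated libraries alone the D7 call also ended (0.83).

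The other genes with the smallest p among the levels or for the slope were not called by edgeR without a term for the letter. Rsub_03091 had 210 to 264 CPM at D1 and D2 and 262 to 322 CPM at D3 to D7, against 235, 246 and 265 CPM in DMSO (edgeR adjusted p = 0.31 among the levels, 0.0267 with the replicate letter as a block, 0.071 to 0.9999 with 1 library left out, and 0.00217 with DESeq2). Rsub_02651 was lowest at D6, with 27.2, 30.2 and 30.5 CPM, against 33.4 to 59.5 CPM at the other levels and 43.9, 61.1 and 50.7 CPM in DMSO (edgeR adjusted p = 0.609). Rsub_10872 was lowest at D7, where its libraries held 1 to 3 counts each, with 0.775, 2.21 and 0.897 CPM, against 0.815 to 11.5 CPM at the other levels (edgeR adjusted p = 0.609). For the slope, Rsub_06178 had 0.15 ± 0.0384 log2 units per level (SE) and Rsub_09251 -0.08 ± 0.0198, both with an edgeR adjusted p of 0.449.

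**Figure D5:**
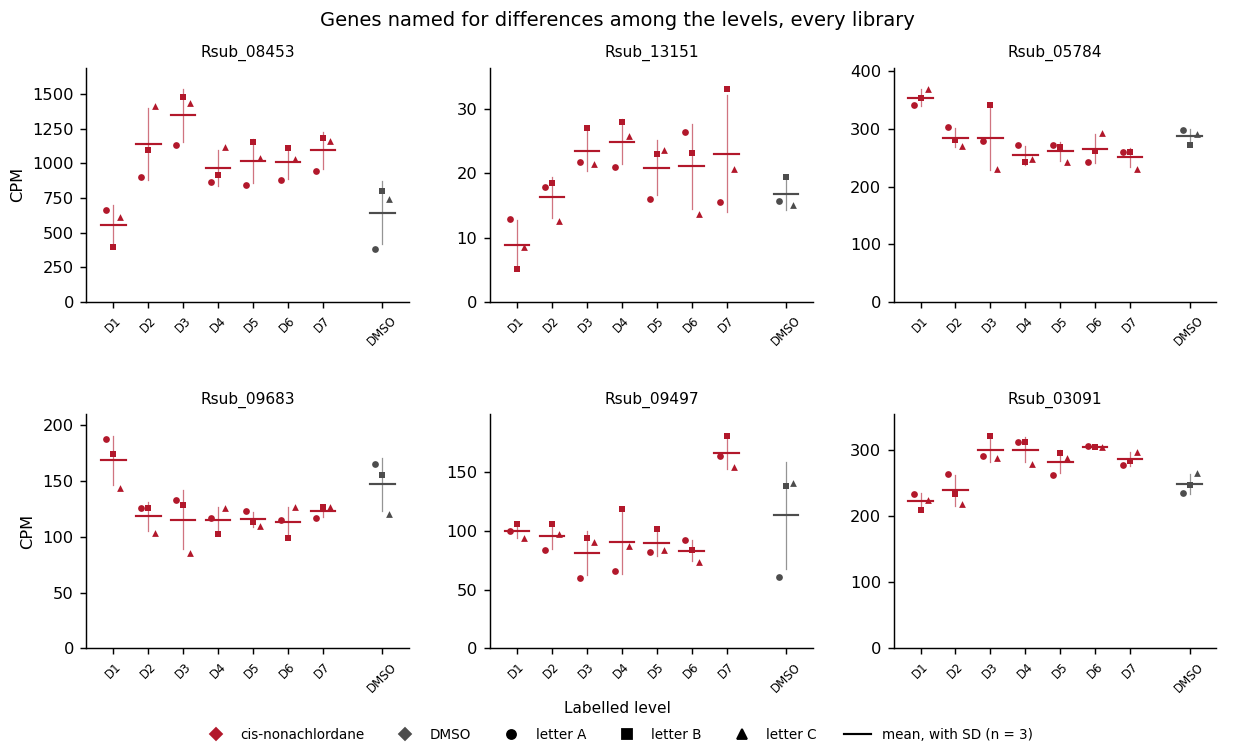
Each panel gives 1 gene, with a point per library in CPM, the mean as a bar and the SD as a line (n = 3), for cis-nonachlordane D1 to D7 and DMSO. D1 lies below the other levels in Rsub_08453 (396 to 663 CPM against 845 to 1475 CPM), and D7 lies above them in Rsub_09497 (154 to 181 CPM against 59.5 to 119 CPM).

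The replicate letters differed in many genes. Among the 21 cis-nonachlordane libraries 1622 genes were called between letters A, B and C with the level held in the fit (17.1%), and DESeq2 called 1225. With the letter held in the fit in turn, 15 genes were called among the levels and 89 at D1 against the other 6. Between letters B and C alone, with the level held in the fit, 186 genes were called. Of the 814 genes called in the shared shift, the mean of the letter A libraries lay between that of DMSO and that of letters B and C for 671 (82.4%), against 4465 of all genes tested (47.1%). The 814 genes were chosen by a contrast of these same libraries, so this order and the shares below are no separate test. The genes called higher in the shared shift held 6.27% to 6.61% of the counts in letter A and 6.95% to 7.43% in letters B and C, against 4.47% to 5.66% in DMSO. The labels do not say what a letter stands for, and its part in the differences from DMSO was not tested beyond these values.

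The direct comparison with fexofenadine set treated libraries against treated libraries, with DMSO only in the fit. Of 9685 genes tested in the 45 libraries, 8 were called at D1 (0.0826%), 79 at D2 (0.816%), 142 at D3 (1.47%), 143 at D4 (1.48%), 183 at D5 (1.89%), 310 at D6 (3.2%) and 411 at D7 (4.24%). At D1 5 were higher (0.0516%) and 3 lower (0.031%) in cis-nonachlordane, and at D7 162 were higher (1.67%) and 249 lower (2.57%). Over the mean of the 7 levels 2678 genes were called (27.7%), 1317 higher (13.6%) and 1361 lower (14.1%) in cis-nonachlordane. Their median absolute log2 fold change was 0.29, and 63 of them passed 2-fold, 14 higher and 49 lower. All 21 cis-nonachlordane libraries were above all 21 fexofenadine libraries for 3 genes and below them for 3. Like the fit against DMSO, this fit had no term for the letter and took the libraries of a letter as independent. Yet all 21 cis-nonachlordane libraries correlated best with their own letter, so the p-values for the mean may overstate the precision. At each single level, the letter as a block gave more called genes, as listed at the end. Which plates held each chemical is not given, so plate and chemical cannot be told apart where they differ.

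The counts by level moved with single libraries here too. Without D1 replicate B, or fexofenadine D1 replicate A, B or C, the D1 count was 0, 0, 19 or 2. Without D2 replicate A, B or C, or fexofenadine D2 replicate A, B or C, the D2 count was 125, 9, 20, 46, 19 or 38. Without D3 replicate B, or fexofenadine D3 replicate A, B or C, the D3 count was 28, 65, 80 or 91. Without D4 replicate A, B or C, or fexofenadine D4 replicate A, B or C, the D4 count was 221, 41, 42, 61, 57 or 73. Without D5 replicate A, B or C, or fexofenadine D5 replicate A or B, the D5 count was 320, 47, 66, 100 or 83. Without D6 replicate B or C, or fexofenadine D6 replicate A, B or C, the D6 count was 76, 102, 132, 142 or 182. Without D7 replicate B or C, or fexofenadine D7 replicate A or B, the D7 count was 107, 157, 187 or 211. The count for the mean of the levels lay between 2495 and 2813 over all 45 libraries left out in turn.

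Genes are named here from called genes in which all 21 cis-nonachlordane libraries lay outside the middle 80% of the fexofenadine libraries. Under that rule the largest rises were in Rsub_11769 and Rsub_01419, the second of them under 2-fold, and other called genes rose more. Rsub_11769 had 202, 239 and 360 CPM as the lowest, median and highest of the 21 cis-nonachlordane libraries, against 84.4, 117 and 181 CPM in the 21 fexofenadine libraries, with no overlap (log2 fold change 1.07 ± 0.0676 SE, edgeR adjusted p = 2.73e-18). DMSO held 95.6, 161 and 165 CPM, and the gene was called higher than DMSO at all 7 levels. In DMSO of the other control sets it ranged between 12.0 and 338 CPM. Rsub_01419 had 46.8, 68.9 and 91.97 CPM in cis-nonachlordane, against 30.5, 40.0 and 47.8 CPM in fexofenadine (0.83 ± 0.084 SE, edgeR adjusted p = 1.83e-11). Its DMSO libraries, at 24.1, 39.9 and 48.5 CPM, overlapped those of fexofenadine.

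Under the same rule the largest falls against fexofenadine were in Rsub_02449 and Rsub_03387. Rsub_02449 had 2.94, 5.57 and 13.7 CPM as the lowest, median and highest in cis-nonachlordane, against 9.44, 22.7 and 34.2 CPM in fexofenadine (log2 fold change -1.64 ± 0.141 SE, edgeR adjusted p = 1.29e-13), and D1 replicates A and C were its lowest fexofenadine libraries. Rsub_03387 had 12.5, 26.7 and 40.2 CPM in cis-nonachlordane, against 36.5, 92.1 and 128 CPM in fexofenadine (-1.60 ± 0.0868 SE, edgeR adjusted p = 7.13e-21). Its fexofenadine D1 libraries held 55.4, 36.5 and 52.6 CPM and those of D2 to D7 71.7 CPM or more. DMSO lay between, at 69.8, 65.6 and 44.7 CPM, and Rsub_03387 was called lower than DMSO at all 7 levels. In DMSO of the other control sets Rsub_03387 ranged between 6.55 and 138 CPM. The calls of these 4 genes over the mean of the levels held in every alternative run.

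At D1 the fewest genes differed between cis-nonachlordane and fexofenadine, and in 2 genes the gap between D1 and the other 6 levels differed between the agents (0.0207%). This test was added after the data were seen. Rsub_12849 had 399, 347 and 436 CPM at D1 and 257 to 402 CPM at D2 to D7 in cis-nonachlordane, against 388, 387 and 418 CPM at D1 and 600 to 751 CPM at D2 to D7 in fexofenadine. The difference of the gaps was 0.95 ± 0.122 on the log2 scale (SE; edgeR adjusted p = 2.31e-06), and the call held in every alternative run. DMSO held 597, 729 and 592 CPM, so that all cis-nonachlordane libraries and the D1 libraries of fexofenadine were below DMSO, and DMSO of the other control sets ranged between 29.5 and 683 CPM. Against DMSO the log2 fold change of Rsub_12849 over the mean of the cis-nonachlordane levels was -0.85 ± 0.0914 (SE; edgeR adjusted p = 4.33e-07).

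Rsub_04163 went the other way, with 163, 134 and 145 CPM at D1 and 114 to 169 CPM at D2 to D7 in cis-nonachlordane, against 186, 153 and 157 CPM at D1 and 75.3 to 116 CPM at D2 to D7 in fexofenadine. The difference of the gaps was -0.78 ± 0.156 (SE; edgeR adjusted p = 0.0357), and the call ended without 19 of the 45 libraries in turn, with differences between -0.83 and -0.68 in those fits. DMSO held 127, 88.6 and 113 CPM. In both genes the cis-nonachlordane levels overlapped each other, while the D1 libraries of fexofenadine lay apart from its other levels.

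Set side by side in 1 fit of the 45 libraries, cis-nonachlordane had 397, 339, 322, 194, 265, 350 and 365 genes called against DMSO from D1 to D7, and fexofenadine had 7 at D1 and 0 at each other level. These counts share the 3 DMSO libraries, and whether a gene called in one agent differed between the agents is given only by the direct test above.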

How the data were processed

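The libraries were those labelled cis-nonachlordane, its DMSO controls, fexofenadine and, for ranges only, the DMSO libraries of the other control sets. What the authors deposited are raw, unnormalized counts of reads for each gene. Per the labels' protocols, 3′ mRNA libraries with molecular identifiers were made from total RNA. The tools named in the submitters' processing notes are featureCounts 2.0.6, SAMtools 1.15.1, STAR 2.7.10a and fastp 0.23.2. The sources used here do not give the genome build, annotation, strand setting or any collapsing of reads by identifier. Uncollapsed PCR copies would make counts look more precise than they are, and near-identical or overlapping genes may share reads.

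The 3 DMSO columns were identical in the tables of both chemicals, and none of 24 library pairs within a group agreed within sampling noise (chi-square per degree of freedom 1.76 to 5.40). The highest values were those of D3 replicate C, at 5.40 with A and 3.76 with B. D3 replicates A and B gave 2.69, and no pair of another level passed 3.01. DMSO pairs gave 3.36, 3.64 and 2.48. edgeR 4.0.16 in R 4.3.3 was fitted to the 24 libraries with one coefficient per group (filterByExpr, TMM, glmQLFit, glmQLFTest), and to 45 libraries for the comparison with fexofenadine. P-values were adjusted by Benjamini-Hochberg within each test. Standard errors were derived as the size of the log2 fold change over the square root of F. CPM values use 1 TMM scale over 60 libraries, and principal components use log2 CPM with a prior count of 2. The scripts were tested on simulated counts with no letter effect, which does not test the calls given here. Of 1.5-fold changes simulated at D1, 31.3% were called against DMSO and 35.8% among the levels.

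For each comparison with DMSO, with the other levels and, over the mean, with fexofenadine, the 2 called genes with the largest rise and fall were named, where they had a mean of at least 10 counts and no overlap of the groups. For the means 18 of 21 libraries outside the DMSO range sufficed, and against the other levels or fexofenadine the middle 80% of the reference libraries was used. Among levels and for the slope the smallest p-values decided. The libraries, comparisons and rules were chosen with earlier results of these data known. The test between letters, the test of the D1 gap against fexofenadine and the counts for letters B and C were added after the data were seen. Alternatives were DESeq2 1.42.0, RLE scaling, other filters, the replicate letter as a block, other sets of libraries and each library left out. Runs that gave a gene no adjusted p were not scored for it. Gene lists by product were not analysed here, since no names were at hand.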

Additional observations from a re-analysis of the deposited data

Results flagged for a closer look

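Over the mean of the 7 levels 2678 of 9685 genes tested differed directly between cis-nonachlordane and fexofenadine (edgeR adjusted p under 0.05), although the agents share their DMSO libraries. In 2 genes, Rsub_12849 and Rsub_04163, the gap between D1 and the other levels differed between the agents. Among the 21 cis-nonachlordane libraries 1622 of 9488 genes tested differed between the replicate letters with the level held in the fit. Between the levels 15 differed with the letter held in the fit and 0 with no term for it. What the letters stand for is not given, and their part in the other results was not tested beyond the counts for letters B and C alone. No single value was screened for outlying samples, because each group had 3 libraries.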

How the results depend on the processing

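Other settings moved the counts of called genes by over 1.5 times as follows, and the cause was not tested unless fewer libraries or genes entered. With no filter on low counts the counts were 393, 247, 336 and 414 at D1, D4, D5 and D7 against DMSO, 350 over DMSO and all levels, 4 among the levels, 26 and 3 at D1 and D3 against the other levels, and 16 at D1 against fexofenadine. A minimum mean of 10 counts gave 1 at D3 against the other levels. DESeq2 gave 202 at D4 against DMSO, 226 over all levels, 21 among the levels, 24 and 1 at D1 and D3 against the other levels and 31 at D1 against fexofenadine. Fitting only the 6 libraries compared gave 74 at D3, and the 45-library fit gave 397 at D1 and 194 at D4. RLE scaling moved no count that far, and among named genes it ended the D1 call of Rsub_13151 against the other levels (-1.28). Fitting only 6 libraries also ended the calls of Rsub_11013 at D3 (1.62) and D4 (1.61) and of Rsub_12609 at D7 (1.66).

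With letters B and C of the treated libraries alone, the counts were 535, 598, 501, 450, 540, 554 and 659 from D1 to D7 against DMSO, 473 over all levels, 1 among the levels, 1526 for the mean, 0 at D7 against the other levels, 186 between letters, 16, 179, 241, 308, 386 and 474 from D1 to D6 against fexofenadine, and 13 for the D1 gap. Letter A was chosen for leaving out because it lay nearest to DMSO, so the counts against DMSO are no separate test.

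The replicate letters did not pair the DMSO libraries with those of cis-nonachlordane: same-letter deviations of a level and DMSO correlated between -0.0175 and 0.0311. Fexofenadine libraries were not part of these correlations. Between 2 cis-nonachlordane levels the deviations correlated between 0.122 and 0.272 in letter A, 0.0287 and 0.127 in letter B and 0.0407 and 0.174 in letter C. Each pair of letter A, but not each of B and C, was thus over 0.1. All 21 of 21 treated libraries correlated best with their own letter, a hint from the data that the treated libraries share something by letter, which the labels do not give. With the replicate block the counts were 724, 718, 681, 572, 628, 687 and 749 from D1 to D7 against DMSO, 684 over all levels, 15 among the levels, 1339 for the mean, 89 and 3 at D1 and D3 against the other levels, and 42, 211, 284, 277, 342, 496 and 651 from D1 to D7 against fexofenadine.

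Leaving out 1 library at a time gave 52 to 328, 18 to 408, 14 to 387, 6 to 287, 8 to 389, 28 to 423 and 40 to 427 genes from D1 to D7 against DMSO, 4 to 183 over all levels, 0 to 2 among the levels and 216 to 931 for the mean. Against the other levels it gave 0 to 21 at D1, 0 to 103 at D3 and 0 to 1 at D7. Against fexofenadine it gave 0 to 19, 9 to 125, 28 to 190, 41 to 221, 47 to 320, 76 to 415 and 107 to 603 from D1 to D7, 2495 to 2813 for the mean and 1 to 3 for the D1 gap. No result reversed its direction. Genes with few counts per library were limited by depth, and a low count of calls does not show that levels act alike.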
